A study of Mus musculus with 5 samples.

Results

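The neutrophil-attracting CXC chemokines of mouse and their receptor were followed through 5 single-cell libraries of the colon. The 6 genes, Cxcl1, Cxcl2, Cxcl3, Cxcl5, Ppbp and Cxcr2, were taken by name out of 23173 genes listed across the files. They were chosen with earlier results of these data known. All 6 were listed in each of the 4 tumor libraries. The normal stroma file listed 5 of them, without Cxcr2.

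The tumor libraries came from wild-type mice, of C57BL/6J or a mixed background, in which azoxymethane (AOM, a mutagen) and dextran sodium sulfate (DSS, which injures the colonic lining) had induced distal colonic tumors. All tumors were treated with Irinotecan and 5-FU (fluorouracil), so no untreated tumor stood beside them. They were harvested at day 1 (replicates 1 and 2), day 3 and day 6, and the day 1 libraries formed the early and days 3 and 6 the late treatment group. The study's results and its methods differ on whether the days count from the start of treatment or from the last cycle. The fifth library came from untreated wild-type colon that was dissociated to enrich stroma. How many mice or tumors went into each library, and their age at harvest, were not used here. Libraries had either a single index (read on a BGI MGI-Seq; day 1 replicate 1 and day 3) or a dual index (read on a NovaSeq6000; the other 3), so each treatment group held 1 library of each structure. In the tumor dissociation the flow-through of the filter was discarded, a step that can set the share of immune cells.

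The ligands belong to the ELR group of CXC chemokines, small secreted proteins that draw neutrophils out of the blood and along a gradient into tissue. They all act through Cxcr2, a G protein-coupled receptor carried mainly by neutrophils. Inflammatory cytokines such as interleukin 1, tumor necrosis factor and interleukin 17 induce Cxcl1, Cxcl2 and Cxcl3 in epithelium, fibroblasts and macrophages, in large part through the transcription factor NF-κB. Cxcl5 is best known from epithelium, and Ppbp, the precursor of CXCL7, from platelets and their parent megakaryocytes. In the inflamed colon these ligands bring neutrophils across the endothelium into the mucosa.

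The 5 ligand genes lie in 1 cluster on chromosome 5 (GRCm38), all on the plus strand, between positions 90759360 and 90905938, a span of 146.6 kb. Their order is Cxcl5 (90759360 to 90761624), Ppbp (90768518 to 90770063), Cxcl3 (90786103 to 90789600), Cxcl1 (90891241 to 90893115) and Cxcl2 (90903871 to 90905938). Pf4, another platelet chemokine, lies between Ppbp and Cxcl3, and Cxcl15 between Cxcl3 and Cxcl1. Cxcr2 lies on chromosome 1 (74153989 to 74161246, plus strand). Promoters are shown as a description of their sequence. Whether they bear on the levels by cell type given below was not tested. Promoters were searched in the RefSeq table for GRCm38.p6 (250 bases before to 50 after each start), in which 5 of the 6 genes had an entry. Cxcl5 had none, so its promoter was neither shown nor searched. The runs below, 120 bases each on the plus strand, end 31 bases before the start (chr5:90891095-90891214, chr5:90903749-90903868, chr5:90785951-90786070 and chr5:90768368-90768487, in the order printed). Capitals mark GGGAATTTCCC, the longest word that these windows of Cxcl1, Cxcl2 and Cxcl3 have in common, which has the form of a κB site, the element recognised by NF-κB proteins.
Cxcl1: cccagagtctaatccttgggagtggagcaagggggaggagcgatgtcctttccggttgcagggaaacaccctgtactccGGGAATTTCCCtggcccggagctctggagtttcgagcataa
Cxcl2: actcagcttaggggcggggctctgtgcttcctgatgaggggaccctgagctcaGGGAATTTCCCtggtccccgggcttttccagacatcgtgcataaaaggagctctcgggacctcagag
Cxcl3: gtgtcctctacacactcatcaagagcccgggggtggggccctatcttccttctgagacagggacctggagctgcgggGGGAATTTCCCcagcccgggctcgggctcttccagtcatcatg
Ppbp: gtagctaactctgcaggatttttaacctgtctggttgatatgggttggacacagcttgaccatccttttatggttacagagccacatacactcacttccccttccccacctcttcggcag
The word, of 11 bases, was chosen from these 3 promoters. Searched on both strands, where its other form is GGGAAATTCCC, it stood in 14 of 32851 promoters of the table (0.0426%). In Cxcl1, Cxcl2 and Cxcl3 it began 71, 97 and 73 bases before the start, and it was not in the promoters of Ppbp or Cxcr2. No run was shown for Cxcr2, whose window held no match. A match describes the letters only, and binding was not measured. Reads could also be shared between genes: of all pairs among the 6, only Cxcl2 and Cxcl3 had 50-base words in common, 126 words, which made up 5.84% of those of Cxcl2 and 3.51% of those of Cxcl3.

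Cells were named from marker genes, without the 6 genes in the clustering, and carry the suffix -like because no protein was measured. The kept cells numbered 748 and 2403 in replicates 1 and 2 of day 1, 1419 at day 3 and 2826 at day 6, the order in which values of the tumor libraries are given throughout, and 1095 in the stroma library. Each library held 5132360 to 16904947 UMIs (unique molecular identifiers, 1 per counted transcript). Columnar epithelial cells numbered 108, 483, 874 and 1354, squamous-like cells 53, 188, 278 and 727, CAF-like cells (cancer-associated fibroblasts) 14, 39, 30 and 55, macrophage-like cells 45, 140, 5 and 155, and neutrophil-like cells 70, 392, 29 and 24. In every library each of these types had at least 10 markers of its own list above the other cells, and the only defining markers at 0 were Lum in CAF-like cells of the first 3 libraries and Adgre1 and Ccr2 in the 5 macrophage-like cells of day 3, which were too few to enter any test. Another 2 epithelial clusters, led by Mt4 and Spock2 and by Clca4a, stayed unnamed. Levels are given in CPM, the count of a gene scaled to a common total of UMIs, over the summed cells of a type, and intervals are exact 95% intervals for counting error only. Cell barcodes shared by any pair of libraries numbered 4 to 41. T or NK cell-like, plasma-like, erythrocyte-like and lymphatic endothelial-like cells together served as reference cells, in which the level of a ligand can come from free RNA in the droplets.

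Cxcl1, a first-line neutrophil attractant of stroma and epithelium, was highest in CAF-like cells. It stood there at 2157, 3446, 211 and 952 CPM, a mean of 1692 ± 1418 (SD, n = 4). Macrophage-like cells followed at 147, 238 and 165 in the 3 libraries with enough cells. Squamous-like cells stood at 46.1, 63.0, 37.6 and 23.1, and columnar cells at 21.3, 9.96, 11.5 and 20.3. CAF-like cells were above every other type just named in each library, and day 3 was their lowest library. Blood endothelial-like cells, not among these types, ranged from 38.6 to 251 CPM. The reference cells stood at 20.8, 2.77, 112 and 6.46, and their 13 UMIs of day 3 were in 1 cell.

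The CAF-like level rested on few cells. At day 6, 146 of 153 Cxcl1 UMIs were in 1 cell, and without it the level fell from 952 to 47.6 CPM. That lies below the 165 CPM of macrophage-like cells, so the order at day 6 rested on that cell. In day 1 replicate 1, 78 of 106 were in 1 cell (678 without it). In day 1 replicate 2 the UMIs were spread over 21 of 39 cells, with 192 of 819 in the richest (2832 without it). Neither the number of cells that make Cxcl1 nor the amount per cell can be read from a summed level alone, and at a median of 2047 to 4479 UMIs per CAF-like cell many transcripts go uncounted. After thinning to 1000 UMIs a cell, 35.6%, 38.6%, 10.7% and 5.22% of CAF-like cells had a Cxcl1 UMI, so the early libraries lay above the late ones on this scale too.

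Cxcl2, known for its rapid induction in myeloid cells, was highest in macrophage-like and neutrophil-like cells. Macrophage-like cells stood at 3048, 3131 and 1619 CPM (2599 ± 849.9, SD, n = 3, without day 3), and neutrophil-like cells at 2349.8, 2343, 556 and 3983 (2308 ± 1399.6, SD, n = 4). The ranges of these types overlapped. In CAF-like cells Cxcl2 was at 468, 1473, 55.1 and 1238, where 194 of the 199 UMIs at day 6 were in 1 cell, with 34.0 CPM left without it. Squamous-like cells stood at 35.2, 59.1, 36.8 and 16.1 and columnar cells at 56.7, 46.7, 24.2 and 19.2, beside the reference cells at 41.7, 40.2, 77.3 and 14.5. All 9 reference UMIs of day 3 were in 1 cell, and 0 were left without it. In the other 3 libraries the epithelial types lay at 35.2 to 59.1 CPM in day 1 and 16.1 to 19.2 in day 6, so the epithelial level there was of the same size as that of the reference cells.

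Cxcl3, a close relative of Cxcl2, was highest in macrophage-like cells, at 977, 1266 and 697 CPM (979.7 ± 285, SD, n = 3). CAF-like cells stood at 814, 694, 9.19 and 18.7, and squamous-like cells at 89.4, 424, 40.2 and 82.3. Columnar cells stood at 38.1, 23.6, 5.51 and 14.7 and the reference cells at 6.95, 5.54, 17.2 and 10.5. In CAF-like cells Cxcl3 was counted 40 and 165 times in the early libraries and 1 and 3 times in the late ones, with 36 of the 40 in 1 cell. Macrophage-like cells with Cxcl3 were mostly cells with Cxcl2: 16 of 18, 41 of 45 and 26 of 34 of them had a Cxcl2 UMI as well.

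Within the macrophage-like cells both ligands sat mainly in 1 of 2 clusters. The cluster led by Lyz2, Thbs1 and Chil3 held Cxcl2 at 4619, 3881 and 2871 CPM in day 1 replicate 1, day 1 replicate 2 and day 6, and Cxcl3 at 1491, 1571 and 1221. The cluster led by the complement genes C1qa, C1qb and C1qc held Cxcl2 at 68.7, 132 and 24.5 and Cxcl3 at 0, 44.0 and 28.0, in 13, 24 and 49 cells. Inflammatory monocyte-derived and resident tissue macrophages are commonly told apart by such genes. In these libraries the Lyz2 cluster lay above the C1q cluster for both ligands in all 3. Since the clusters were drawn from the same cells, this order has no test.

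**Figure D1:**
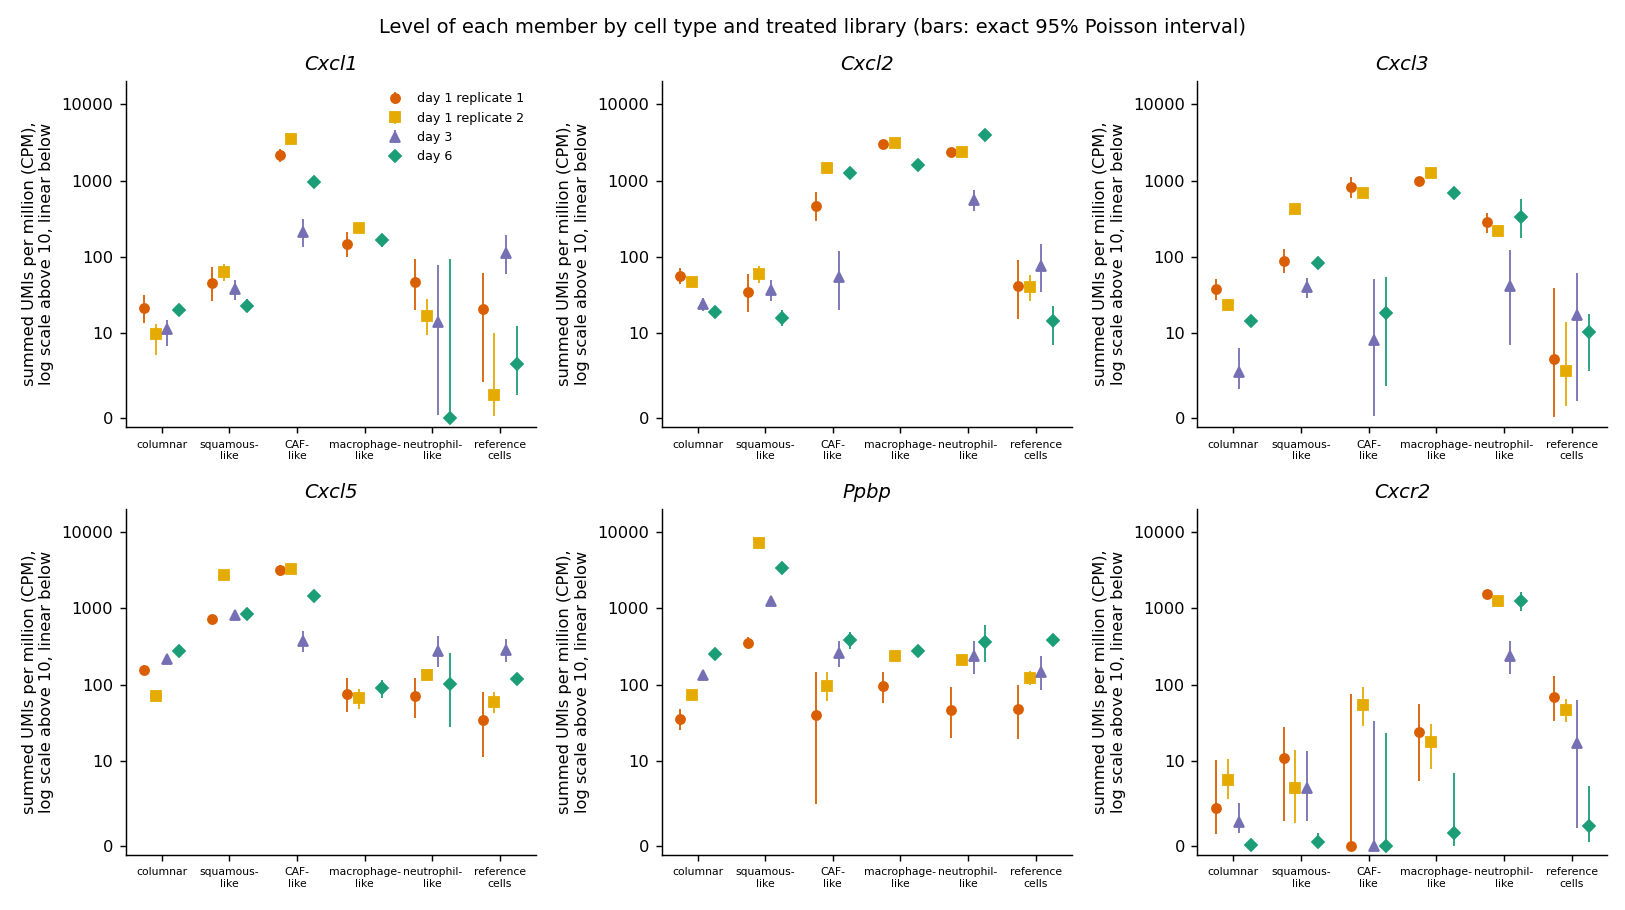
Level of each gene (CPM of the summed UMIs, log scale above 10 and linear below) by cell type, with 1 point per treated library and exact 95% Poisson intervals; libraries with under 10 cells of a type are left out. CAF-like cells lead for Cxcl1 (up to 3446), macrophage-like and neutrophil-like cells for Cxcl2, squamous-like cells for Ppbp (up to 7164) and neutrophil-like cells for Cxcr2, while the reference cells hold Ppbp at 48.6 to 379.

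Cxcl5, an epithelial neutrophil attractant, was shared by CAF-like and squamous-like cells. In the former it was at 3155, 3227, 377 and 1431 CPM (2047 ± 1389, SD, n = 4) and in the latter at 713, 2705, 804 and 852 (1269 ± 959.6, SD, n = 4). Columnar cells stood at 156, 70.9, 216 and 273. CAF-like cells lay above squamous-like cells in 3 libraries and below them in day 3, so the order of these types did not hold in every library. In both day 1 libraries a large part of the CAF-like UMIs was in 1 cell. Without the cells richest in ligand UMIs, the CAF-like minus squamous-like difference in the edgeR fit was -0.39 (log2), against 0.48 with all cells. Blood endothelial-like cells reached 493 and 988 in day 3 and day 6, where 123 of 164 and 48 of 55 UMIs were in 1 cell. Macrophage-like cells stood at 75.8, 66.1 and 89.2 and the reference cells at 34.7, 59.6, 283 and 119. In day 6 columnar cells stood above the reference cells. In day 3 they stood below them, but 16 of the 33 reference UMIs of day 3 were in 1 cell, and without it the reference stood at 155 CPM, below the columnar 216. In day 1 replicate 1, 120 of the 176 columnar UMIs were in 1 cell, and 50.6 CPM were left without it.

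Ppbp was highest in squamous-like cells. It stood there at 355, 7164, 1250.1 and 3385 CPM, a mean of 3039 ± 3029.8 (SD, n = 4), and the dual index libraries lay above the single index ones. Columnar cells held it at 35.5, 72.2, 135 and 253, CAF-like ones at 40.7, 96.8, 257 and 386, and the reference cells at 48.6, 123, 146 and 379. Columnar and CAF-like cells thus had their libraries in the same order as the reference cells. Higher still were blood endothelial-like cells of day 3, at 1175 CPM, where 338 of 391 UMIs were in 1 cell and 169 CPM were left without it. A Ppbp UMI was in 77.7% of squamous-like cells of day 6 and in 64.4% of its reference cells, at medians that differ in depth, so shares of cells with a UMI say little here. After thinning to 1000 UMIs these shares were 37.6% and 35.4%.

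The Ppbp level was also set against squamous transcripts. Per 100 UMIs of the squamous marker genes, Ppbp gave 0.997, 14.1, 4.67 and 8.45 UMIs in squamous-like cells and 2.59, 10.2, 3.48 and 6.08 in the reference cells. The ratio of the reference cells was above that of squamous-like cells in day 1 replicate 1, on 7 Ppbp UMIs, and somewhat below it in the other 3 libraries. Whether free RNA carried Ppbp into other cells was not tested. Cxcl5 behaved otherwise in CAF-like cells, at 152, 338, 5.20 and 27.9 per 100 squamous marker UMIs against 1.85, 4.91, 6.75 and 1.90 in the reference cells. There the CAF-like ratio lay far above the reference in 3 libraries. In day 3 it lay below it, where the reference ratio rested on 33 Cxcl5 UMIs with 16 of them in 1 cell, so no order can be read for that library. CAF-like cells of day 3 also had the lowest sum of their own markers, 10909 CPM against 21021 to 40583 in the other libraries, and the highest of squamous markers, 7242 CPM against 955 to 5121. The part of these in the day 3 levels was not tested.

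Since Ppbp is a platelet gene, platelet markers were read in squamous-like cells. Gp5 and Treml1 were at 0 UMIs in all 4 libraries, Gp9 had 1 and Gp1bb 8, and Itga2b had 37 (at most 10.8 CPM). Pf4, the platelet chemokine next to Ppbp, stood at 32.5, 33.9, 15.4 and 16.8 CPM in squamous-like cells and at 469, 463 and 298 in macrophage-like cells. The defining platelet markers were therefore at or near 0 where Ppbp reached 7164 CPM.

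Within squamous-like cells, Ppbp was concentrated in the cluster led by Ltf, Psca, Krt6b and Krt13. This cluster is called differentiated here from Krt13 alone, a keratin of differentiated stratified epithelium. Ppbp reached 14198 CPM in 16 cells of day 1 replicate 2 and 6241 in 271 cells of day 6, where this cluster held 77.5% of all Ppbp UMIs of the library. A single cell of day 6 held 1251 of them, and 5776 CPM were left without it. The basal cluster led by Trp63, Krt17 and Col17a1 stood at 212, 5534 and 364 in day 1 replicate 1, day 1 replicate 2 and day 6. So the differentiated cluster was above the basal one in both libraries that held at least 10 cells of each. Most squamous-like cells of day 1 replicate 2, 121 of 188, were in a cluster led by U90926, Krt17 and Stmn2, which stood at 3252 CPM and had 894 of the 7388 Ppbp UMIs of these cells, against 3838 in the differentiated and 2632 in the basal cluster. In day 6 a further cluster of 145 cells, led by Calm4 and Krt10, stood at 1514. Cxcl5 followed the same order, at 4835 and 1184 in the differentiated and 2332 and 529.9 in the basal cluster of these libraries. The cluster led by Cfap53 and Dmkn, which made up most squamous-like cells of day 3, stood at 1075 for Ppbp and 753 for Cxcl5. Of squamous-like cells with a Cxcl5 UMI, 39.4%, 79.7%, 61.1% and 82.8% had one of Ppbp too. Of all squamous-like cells, 39.6%, 71.8%, 51.8% and 77.7% had one. The share was thus higher among cells with Cxcl5 in day 1 replicate 2, day 3 and day 6, and about equal in day 1 replicate 1. All squamous-like cells include those with Cxcl5, which narrows the difference, and the part of depth in it was not tested.

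**Figure D2:**
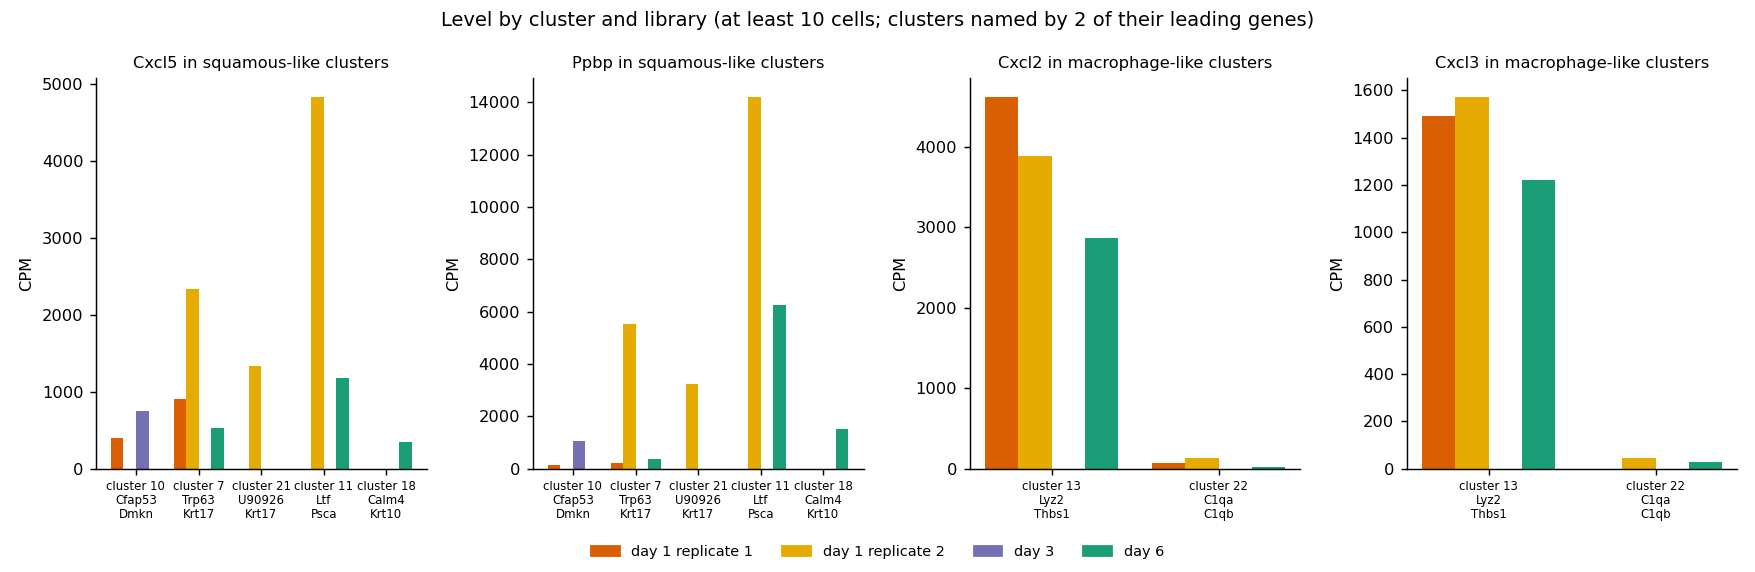
Level (CPM) of Cxcl5 and Ppbp in the squamous-like clusters and of Cxcl2 and Cxcl3 in the macrophage-like clusters, 1 bar per treated library; a missing bar is a library with under 10 cells of that cluster, or a level of 0 (Cxcl3, cluster 22, day 1 replicate 1). The Ltf and Psca cluster reaches 14198 and 6241 for Ppbp, and the Lyz2 and Thbs1 cluster lies above the C1qa and C1qb cluster in every library shown.

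Cxcr2, the receptor, was carried by neutrophil-like cells, at 1555, 1259, 236 and 1233 CPM (1071 ± 575, SD, n = 4). It was counted in 64 of 70, 341 of 392, 11 of 29 and 17 of 24 of them. Columnar, squamous-like and macrophage-like cells stayed at or below 23.7 CPM in the libraries with at least 10 cells, and the reference cells stood at 69.5, 47.1, 17.2 and 2.42. CAF-like cells had 13 UMIs in day 1 replicate 2, 11 of them in 1 cell, and 0 in the other libraries. T or NK cell-like cells of day 1 replicate 2 were at 323 CPM (23 UMIs in 8 of 26 cells). The neutrophil-like cells of day 3 were the low library, and they also had the lowest sum of neutrophil markers, 8732 CPM against 22063 to 33404. Their squamous marker level was 6340.1 CPM, against 2768 and 3036 in the day 1 libraries and 7914 in day 6. The part of these in the Cxcr2 level of day 3 was not tested. Neutrophil-like cells with Cxcl2 mostly carried the receptor, in 39 of 42, 179 of 203, 10 of 17 and 8 of 13 cells. Cxcr1, the other receptor of this family, reached at most 27.8 CPM in neutrophil-like cells.

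Types were compared within libraries by edgeR on the summed counts, with the library as a block and a called difference set at an adjusted p under 0.05 over all genes tested. Against columnar cells, 3 of the 6 genes were higher in squamous-like cells and none lower, where 19.2% of 11482 genes were called in either direction, 8.91% as higher and 10.3% as lower. Ppbp was higher by 4.15 ± 0.62 (log2, SE; adjusted p = 0.0026), Cxcl3 by 2.78 ± 0.46 (adjusted p = 0.0041) and Cxcl5 by 2.63 ± 0.61 (adjusted p = 0.018). Cxcl1 differed by 1.42 ± 0.44 and missed the threshold (adjusted p = 0.056), but was called as higher in 4 of 11 alternatives, with adjusted p from 1.4e-05 (no filter on low counts) to 0.15 (without day 1 replicate 2). Cxcl2 missed it too (0.08 ± 0.27, adjusted p = 0.90), as did Cxcr2 (0.84 ± 0.47, adjusted p = 0.28). The Cxcl5 call was lost without day 1 replicate 1 (adjusted p = 0.077). Without day 1 replicate 2 the differences of Ppbp, Cxcl3 and Cxcl5 were 3.41, 2.18 and 1.88, all called.

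CAF-like cells were above columnar cells for 4 of the 5 genes tested, against a background of 17.1% of 8556 genes called, 9.64% as higher and 7.41% as lower. Cxcl1 was higher by 6.23 ± 0.59 (log2, SE; adjusted p = 2.0e-06), Cxcl2 by 4.15 ± 0.62 (adjusted p = 1.8e-04), Cxcl5 by 3.30 ± 0.63 (adjusted p = 0.0016) and Cxcl3 by 3.46 ± 0.66 (adjusted p = 0.0016). Ppbp differed by 0.61 ± 0.27 (adjusted p = 0.16). With the cell richest in ligand UMIs left out of each library and type, Cxcl1 and Cxcl2 remained called at 5.02 and 2.78 (adjusted p = 0.0021 and 0.018), and Cxcl3 no longer passed the filter on low counts. The Cxcl3 call was also lost without day 1 replicate 1 (2.79, adjusted p = 0.057), and without day 1 replicate 2 the differences of Cxcl1, Cxcl3 and Cxcl5 were 5.47, 2.55 and 2.50. Without day 3 those of Cxcl1, Cxcl2 and Cxcl5 were 6.87, 4.83 and 4.11, and without day 6 those of Cxcl2 and Cxcl3 were 3.41 and 4.20.

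Set directly against squamous-like cells, CAF-like cells were higher for Cxcl1 (4.86 ± 0.54, adjusted p = 1.9e-04) and Cxcl2 (4.14 ± 0.77, adjusted p = 0.0051) and lower for Ppbp, which differed by -3.78 ± 0.59 (adjusted p = 0.0018). In this comparison 15.3% of 5710 genes were called, 7.97% as higher and 7.29% as lower. Cxcl3 and Cxcl5 differed by 0.58 ± 0.67 and 0.48 ± 0.44 (adjusted p = 0.63 and 0.54), which does not show that the types were alike, and both took the opposite sign without day 1 replicate 1 (-0.48 and -0.10) and without the richest cells (-0.64 and -0.39). Without the richest cells Cxcl1 and Cxcl2 stayed called at 3.13 and 2.62. Leaving out day 3 gave 5.51, 4.99 and -4.48 for Cxcl1, Cxcl2 and Ppbp, leaving out day 6 gave 3.23 for Cxcl2, and leaving out day 1 replicate 2 gave -2.83 for Ppbp.

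Macrophage-like cells were above columnar cells for 4 of the 5 genes tested in 3 libraries, where 37.0% of 9367 genes were called, 19.3% as higher and 17.7% as lower. Cxcl2 was higher by 6.27 ± 0.23 (log2, SE; adjusted p = 5.2e-08), Cxcl3 by 5.56 ± 0.26 (adjusted p = 9.5e-08), Cxcl1 by 3.69 ± 0.36 (adjusted p = 2.4e-05) and Ppbp by 1.20 ± 0.34 (adjusted p = 0.019). Cxcl5 differed by -0.75 ± 0.31 (adjusted p = 0.089). The Ppbp call was lost without day 1 replicate 2 (0.62, adjusted p = 0.27) and was 1.95 without day 6. Ppbp stood at 94.8, 239 and 272 CPM in macrophage-like cells, above the reference cells of the same library in day 1 (48.6 and 123) and below them in day 6 (379). Cxcl1 was 3.00 without day 1 replicate 2 and 4.28 without day 6.

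Between the myeloid types, neutrophil-like cells were higher for Cxcr2 by 6.68 ± 0.33 (log2, SE; adjusted p = 8.1e-23) and lower for Cxcl1, by -3.23 ± 0.37 (adjusted p = 3.7e-10), and for Cxcl3, by -2.01 ± 0.24 (adjusted p = 1.2e-09). So 3 of the 6 genes were called, against 24.5% of 6927 genes, 11.4% as higher and 13.1% as lower. Cxcl2 differed by 0.09 ± 0.22 (adjusted p = 0.81). Without day 1 replicate 2 the difference of Cxcl1 was -2.11 (adjusted p = 0.029) and that of Cxcr2 7.30, and without day 6 that of Cxcr2 was 6.10. Both myeloid types thus carried Cxcl2, while Cxcl3 and Cxcl1 were lower in the neutrophil-like one.

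**Figure D3:**
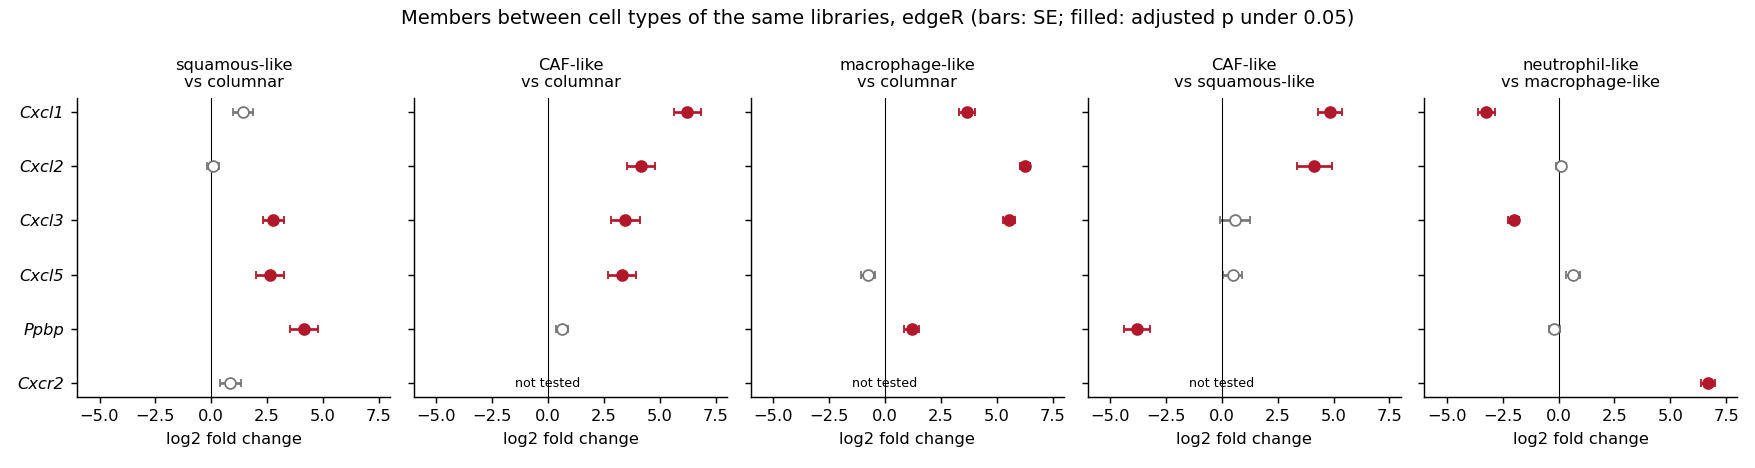
Log2 fold change of each gene between cell types of the same libraries (edgeR; bars are 1 SE, filled points have an adjusted p under 0.05; 4 libraries, or 3 where macrophage-like cells enter). Ppbp stands 4.15 above columnar cells in squamous-like cells and 3.78 below squamous-like in CAF-like cells, and Cxcl2 stands 6.27 above columnar cells in macrophage-like cells.

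The UMIs of each gene in a library were then divided among the types. CAF-like cells, 1.62% to 2.11% of cells, held 30.5%, 62.4%, 14.0% and 26.7% of the Cxcl1 UMIs. Macrophage-like cells held 45.1%, 40.6%, 4.12% and 63.1% of Cxcl2 and 46.5%, 46.4%, 7.69% and 45.9% of Cxcl3, from 0.352% to 6.02% of cells. Day 3, with 5 macrophage-like cells, was the library in which columnar cells held the largest share of Cxcl2 (41.6%) and squamous-like cells that of Cxcl3 (51.6%). Neutrophil-like cells added 28.0%, 41.8%, 16.5% and 9.28% of Cxcl2.

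Squamous-like cells held 28.4%, 52.2%, 41.2% and 58.0% of the Cxcl5 UMIs and 39.1%, 82.0%, 57.2% and 83.6% of those of Ppbp, from 7.09% to 25.7% of cells. Columnar cells, 14.4% to 61.6% of cells, held 6.79% to 39.5% of Cxcl5 and 4.11% to 22.1% of Ppbp. Neutrophil-like cells held 86.6%, 87.1%, 32.7% and 81.4% of Cxcr2. Their lowest share was that of day 3, a library with 52 Cxcr2 UMIs in all. In the other 3 libraries ligand and receptor were therefore mostly in different cells, with Cxcl2 as the ligand that neutrophil-like cells held in quantity themselves.

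**Figure D4:**
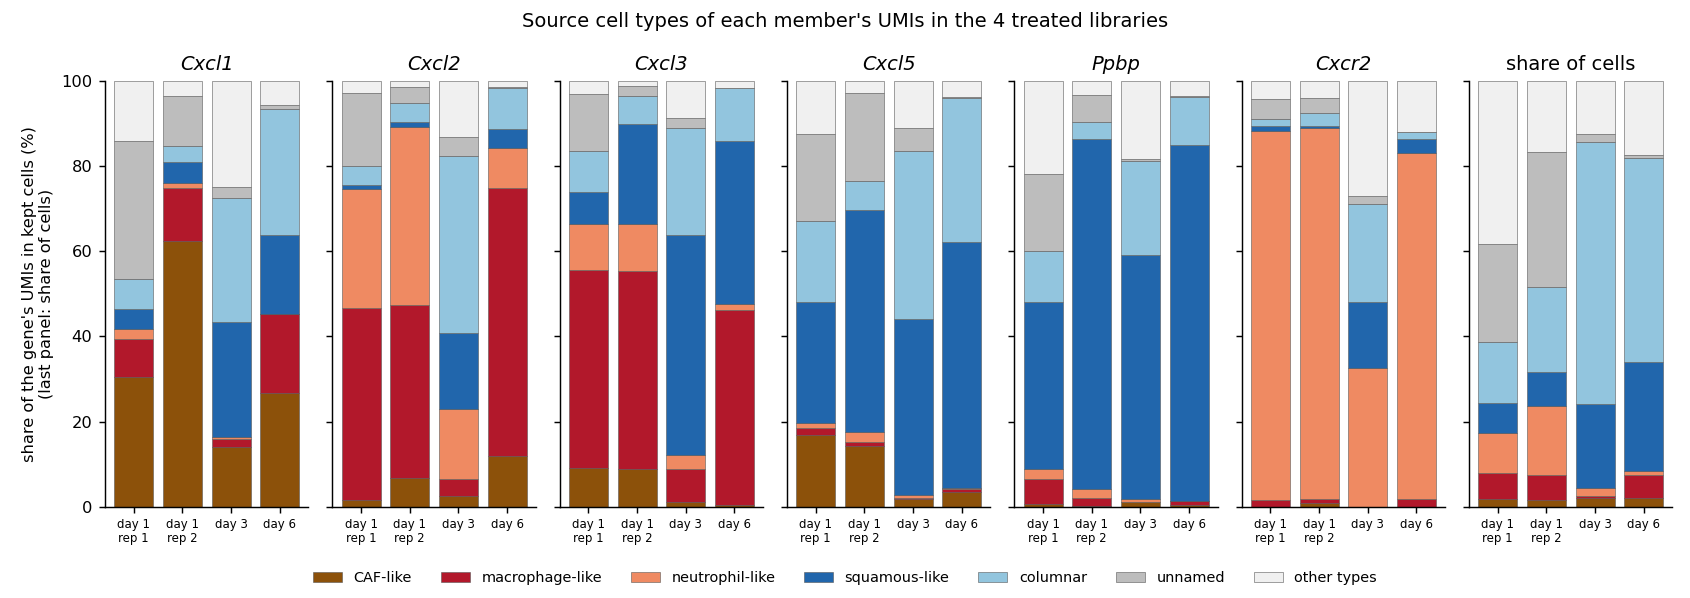
Share of each gene's UMIs (%) that came from each cell type in the 4 treated libraries, with the share of cells in the last panel. CAF-like cells give 14.0% to 62.4% of Cxcl1 from 1.62% to 2.11% of the cells, squamous-like cells 39.1% to 83.6% of Ppbp, and neutrophil-like cells 32.7% to 87.1% of Cxcr2.

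The share of neutrophil-like cells was 9.36% (interval 7.37% to 11.7%), 16.3% (14.9% to 17.9%), 2.04% (1.37% to 2.92%) and 0.849% (0.545% to 1.26%) of kept cells. Both early libraries lay above both late ones, with a late minus early difference of -11.4 percentage points, -7.31 among the single index and -15.5 among the dual index libraries. With 2 libraries against 2, the exact permutation test (two-sided) gave p = 0.333, the smallest it allows. Of non-epithelial cells the share was 41.4%, 49.4%, 19.2% and 3.76%. Neutrophils hold few transcripts, and a limit of 500 genes can remove some of them. Of the neutrophil-like cells kept, 2 of 70, 0 of 392, 0 of 29 and 6 of 24 lay under 750 genes, and their median was lowest in day 6, at 897.0 genes against 1232 to 1294 in the other libraries, so day 6 was the library closest to the limit. With a wider cell filter (at least 300 genes) the late minus early difference was -11.4 percentage points as well. That filter kept 751, 2449, 1419 and 2830 cells, against 748, 2403, 1419 and 2826. It added too few cells to show whether the limit of 500 genes removed neutrophils. Cells removed before deposit cannot be counted. The discarded flow-through was shared by all 4 tumor libraries.

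Over all kept cells, Cxcl1, Cxcl2 and Cxcl3 had their early libraries above the late ones, as the neutrophil-like share did. Cxcl5 and Ppbp did not. The share of all genes with early above late was not computed, so the number of ligands is not read as a result. Cxcl1 stood at 67.9, 78.2, 24.6 and 35.7 CPM, Cxcl2 at 278, 313, 36.5 and 104, and Cxcl3 at 86.4, 111, 13.7 and 61.3. For these 3 both early libraries lay above both late ones, with late minus early differences of -42.9, -225 and -61.0 CPM (p = 0.333 each by the exact permutation test, the smallest possible). Cxcl5 stood at 181, 319, 343 and 420.3, with both late libraries above both early ones (132 CPM, exact permutation p = 0.333). Ppbp stood at 65.4, 537, 383 and 1158, and its groups overlapped (469.5 CPM, exact permutation p = 0.667). Among the single index libraries the late minus early differences were -43.3, -242, -72.8, 162 and 318 CPM for Cxcl1, Cxcl2, Cxcl3, Cxcl5 and Ppbp, and among the dual index ones -42.4, -209, -49.3, 102 and 621.

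The sum of the 5 ligands, which the ligands with most UMIs dominate, did not follow the neutrophil-like share. It stood at 679, 1356, 801 and 1779 CPM, and day 6, with the fewest neutrophil-like cells, had the highest sum. Ppbp and Cxcl5 made up 1158 and 420.3 of the 1779 CPM of day 6. Both dual index libraries (1356 and 1779) lay above both single index ones (679 and 801). The late minus early difference of the sum was 272 CPM (exact permutation p = 0.667) and became -66.7 without day 1 replicate 1 and -217 without day 6. Cxcr2 over all cells had the early libraries above the late ones, at 59.5, 80.5, 7.81 and 3.67 CPM. A lower summed level can come from fewer cells of a type or from less RNA in each. The neutrophil-like cells are themselves a source of Cxcl2, so its level over all cells and their share are not separate measures. With 4 libraries no correlation was computed.

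**Figure D5:**
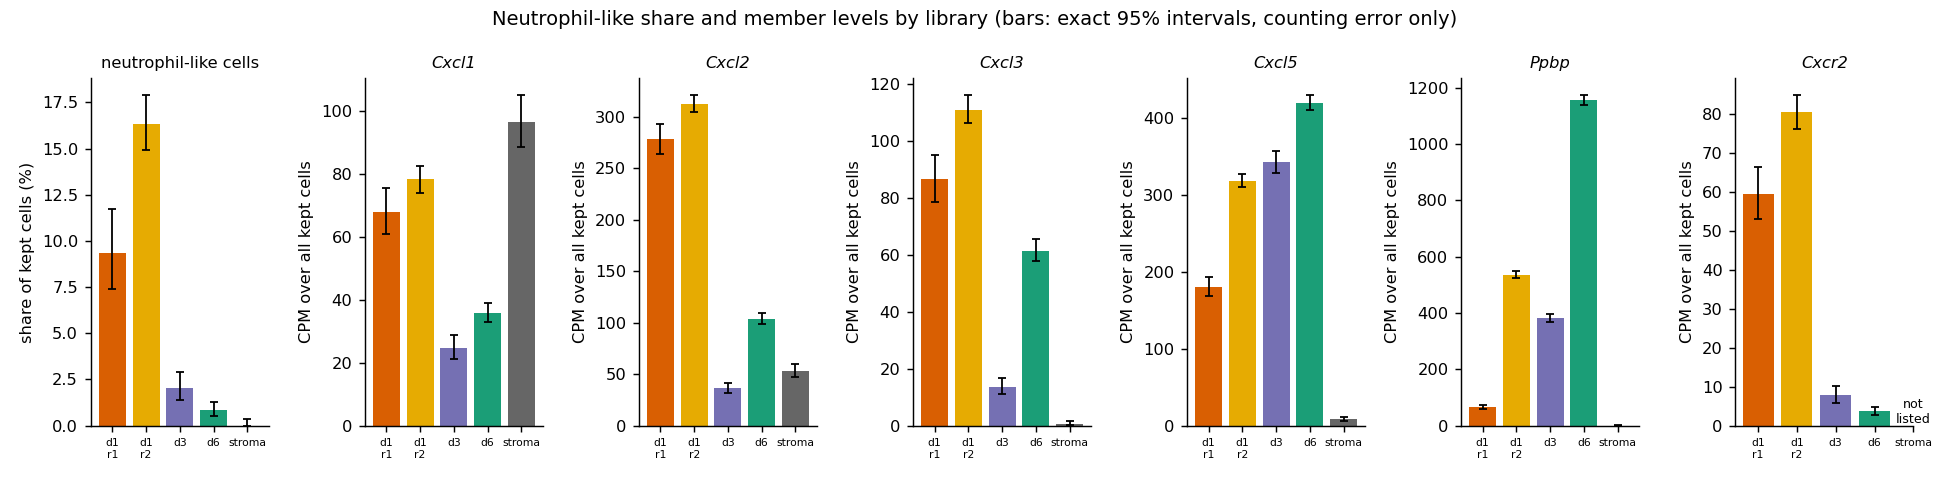
Share of neutrophil-like cells (%) and level of each gene over all kept cells (CPM) in day 1 replicates 1 and 2 (d1 r1, d1 r2), day 3 (d3), day 6 (d6) and the normal stroma library, with exact 95% intervals. The share and Cxcl1, Cxcl2, Cxcl3 and Cxcr2 are higher in both day 1 libraries than in day 3 and day 6, Cxcl5 is lower, and Ppbp runs from 65.4 to 1158.

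Late and early libraries were also compared within each cell type. None of the 6 genes was called in any of the 5 types, and few genes were called at all: 0% of 12504 genes in columnar cells, 0% of 9784 in squamous-like, 0% of 3325 in CAF-like and 0% of 2581 in neutrophil-like cells, and 2.05% of 8941 in macrophage-like cells, where 1 late library entered. At an unadjusted p under 0.05, edgeR had 808, 392, 264, 165 and 806 genes (6.46%, 4.01%, 7.94%, 6.39% and 9.01%), and DESeq2 called 55, 21, 11, 6 and 17 at its adjusted threshold, in the order columnar, squamous-like, CAF-like, neutrophil-like and macrophage-like. Differences of these genes over treatment within a type were thus not separable from the spread between libraries.

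The largest difference was that of Cxcl3 in CAF-like cells, at 814 and 694 CPM early and 9.19 and 18.7 late. It came to -5.51 ± 0.74 (log2, SE; unadjusted p = 1.1e-04, adjusted p = 0.24) and was called in 6 of 11 alternatives, with adjusted p from 5.3e-06 to 0.54. The late counts were 1 and 3 UMIs, and most of the UMIs of day 1 replicate 1 were in 1 cell, as given above. Cxcl1 and Cxcl5 in CAF-like cells also had both late libraries below both early ones (-2.16 ± 0.87 and -1.71 ± 0.81, adjusted p = 0.58 and 0.67). In columnar cells Ppbp was at 35.5 and 72.2 early and 135 and 253 late, a difference of 2.19 ± 0.54 (adjusted p = 0.72, called in 4 of 12 alternatives). Ppbp of the reference cells, at 48.6 and 123 early and 146 and 379 late, had the same direction, though the mix of these cells differed between libraries.

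In squamous-like cells Ppbp differed by -0.63 ± 1.11 between late and early libraries (adjusted p = 1.00), and it was higher late in the single index pair (355 and 1250.1 CPM) but lower late in the dual index pair (7164 and 3385). Cxcl5 there was 713 and 804 in the first pair and 2705 and 852 in the second. The direction of both thus differed between the library structures, and without day 1 replicate 2 the late minus early differences were 2.88 and 0.41 (log2). Cxcl3 was lower late within each structure (89.4 to 40.2, and 424 to 82.3), at -1.98 ± 0.74 (adjusted p = 1.00). In macrophage-like cells Cxcl2 and Cxcl3 differed by -0.84 ± 0.58 and -0.59 ± 0.55 (adjusted p = 0.80 and 0.91), and in neutrophil-like cells Cxcl2 and Cxcr2 differed by -0.03 ± 0.88 and -0.93 ± 0.81 (adjusted p = 1.00 and 0.91). Whether the change over treatment differed between squamous-like and columnar cells was tested as an interaction, in which none of the 6 genes and 0% of 12573 genes were called (636 genes, 5.06%, at an unadjusted p under 0.05, and 29 by DESeq2).

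Genes that surround this axis were read from a fixed list of 41: inducing cytokines, their receptors, NF-κB feedback genes, granulocyte growth factors and adhesion molecules. Macrophage-like cells had 20 of 22 tested genes higher than columnar cells and 2 lower, with a list median of 2.85 on the log2 scale against -0.04 for all genes, of which 19.3% were called as higher and 17.7% as lower. Higher were all 4 tested cytokines, Il1a (6.77 ± 0.28), Il1b (6.41 ± 0.29), Il6 (6.18 ± 0.39) and Tnf (3.06 ± 0.38), and all 6 feedback genes, such as Nfkbia (2.90 ± 0.33) and Tnfaip3 (2.47 ± 0.33), which restrain NF-κB. Lower were Il17rc and Il17re, receptor chains for interleukin 17 cytokines (-1.79 ± 0.36 and -1.57 ± 0.38). Il1b stood at 4688, 2451 and 2127 CPM in macrophage-like and at 4812, 2997, 1349 and 3443 in neutrophil-like cells, so both myeloid types that held Cxcl2 held Il1b.

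CAF-like cells had 4 of 16 tested list genes above columnar cells and 2 below (9.64% and 7.41% of all genes), with a median of 0.40 against -0.11. Il1r1, the signalling receptor of interleukin 1, was higher by 4.22 ± 0.49 (adjusted p = 1.4e-05) and Nfkbia by 2.18 ± 0.32, and the antagonist Il1rn was lower (-0.99 ± 0.28). Squamous-like cells had 6 of 21 higher and none lower (8.91% and 10.3% of all genes), with a median of 0.17 against -0.04. These were Il1a (2.04 ± 0.51), Il1r1 (1.72 ± 0.40), Il17re (0.80 ± 0.18), Icam1, which neutrophils bind (0.96 ± 0.26), Lcn2, an iron-withholding antimicrobial protein (1.38 ± 0.23), and Ltb4r1, a leukotriene receptor (3.21 ± 0.49). Il17a and Il17c stayed at or below 3.08 CPM in columnar, squamous-like, CAF-like, macrophage-like, neutrophil-like and blood endothelial-like cells. They were not read in T or NK cell-like cells, and the study reports high Il17a in T cells of AOM/DSS tumors. Neutrophil-like cells differed from macrophage-like cells in 14 of 21 list genes, 6 higher and 8 lower, where 24.5% of all genes were called, 11.4% as higher and 13.1% as lower.

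Ackr1, an endothelial receptor that binds and carries these chemokines without classical signalling, stood at 541, 556, 264 and 1742 CPM in blood endothelial-like cells (12, 62, 59 and 15 cells) and at or below 20.4 CPM in the 5 types above. Csf3, the growth factor that drives granulocyte output, stood at 120.2, 25.7, 54.1 and 108 CPM there. Sele, the endothelial selectin that slows neutrophils, stood at 30.1, 41.8, 3.00 and 108. Each of the 3 had UMIs in the endothelium of every library, and Ackr1 was highest at day 6.

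Between late and early macrophage-like cells, 3 of 28 tested list genes were called, against 2.05% of all genes: Il1rn was higher (1.86 ± 0.52, adjusted p = 0.024), and the alarmins S100a8 and S100a9 were lower (-4.20 ± 0.89 and -3.49 ± 0.71). S100a8 and S100a9 are also leading genes of neutrophils, and the neutrophil-like share of these libraries was 9.36% and 16.3% early and 0.849% late. The summed level of the neutrophil markers in macrophage-like cells was 1612 and 1875 CPM early and 976 late, and its part in these differences was not tested. Of 7 CXC ligands without the ELR motif, which do not act through Cxcr2, 5 were tested in this fit. Among them Cxcl9 (7.50 ± 0.80), Cxcl10 (5.85 ± 0.98) and Cxcl13 (9.38 ± 1.06) were higher late. These rest on 3 libraries with day 6 as the sole late one, and the number of genes called in this fit went from 183 to 0 once the cell richest in ligand UMIs was removed from each library (DESeq2 called 17 with all cells). In the other 4 types no list gene was called between late and early libraries.

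The genes whose level was most like that of each ligand were found over 39 sums of a library and type with at least 20 cells, among 7881 genes. The sums share libraries, so the values describe and carry no test. Cxcl1 was most like Axl, Inhba and Mmp13 (Pearson r = 0.87 each), and Cxcl5 like Tpm2 (0.85), Ecm1 (0.83) and Wnt5a (0.81). Among the genes most like Cxcl2 were Slc15a3 (0.90) and Snx18 (0.89), and Cxcl3 was most like Clec4n (0.82), Ptgs2 (0.81) and Cxcl2 itself (0.80). Ppbp was most like the keratins Krt14 and Krt6b (0.87 each), and Cxcr2 like Arg2 and Slc2a3 (0.94 each) and Hdc (0.92). Among the 6 genes themselves the values were 0.80 for Cxcl2 with Cxcl3, 0.61 for Cxcl5 with Ppbp, 0.57 for Cxcl1 with Cxcl5, and 0.07 for Cxcl1 with Ppbp.

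The normal stroma library, 1 untreated sample of another dissociation, was set beside the tumors without a test. Cxcl1 stood at 96.3 CPM over all its cells, Cxcl2 at 53.1, Cxcl5 at 8.80, Cxcl3 at 0.690 (4 UMIs) and Ppbp at 0.173 (1 UMI). Cxcl1 was in fibroblast-like cells at 410.2 CPM (interval 355 to 471), pericyte-like cells at 636 (462 to 854) and telocyte-like cells at 321 (256 to 397). These mesenchymal types thus carried it here as well, and other mesenchymal cells of this library are not given. The study states, without showing data, that normal colonic fibroblasts did not express Cxcl1. Cxcl2 was in macrophage-like cells at 974 (859 to 1101), which held 83.8% of its UMIs, while Cxcl3 had 1 UMI there. No squamous-like cell was named, and no neutrophil-like cell was found among 1095 cells, which allows a share of up to 0.336% (upper end of the exact interval). The 1 Ppbp UMI lies under the 3 counts that a level of 0 allows, and the 4 Cxcl3 UMIs lie just above them.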

How the data were processed

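Tumors and normal stroma were dissociated and encapsulated by inDrop, 1 library per sample. The authors aligned the reads with dropEst to mouse GRCm38 and deposited unnormalized UMI counts for each barcode and gene, 1 file per library. Cells with at least 500 genes and at most 15% mitochondrial UMIs were kept here.

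Cells of the 4 treated libraries, and those of the stroma library apart, were clustered in scanpy 1.11.5 (2000 variable genes without the 6 genes and, other than markers, the list of related genes; 20 principal components, 20 neighbours, Leiden resolution 1) and named from fixed markers. The 6 genes and all lists were chosen with earlier results of these data known. The genes named are the 6, those of the fixed list and those most alike in level (Pearson r of log2(CPM + 10), mean of at least 20 CPM); some of the latter are not reported here.

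Counts were summed per library and type (at least 10 cells) and tested by edgeR 4.0.16 quasi-likelihood fits with TMM scaling, filterByExpr and Benjamini-Hochberg adjustment. DESeq2 1.42.0, no filter on low counts, other resolutions, a wider cell filter, library structure as a block and each library left out were alternatives. Removing the cell richest in ligand UMIs and counting the unnamed clusters as columnar were chosen after seeing the data. Scrublet called 0 to 7 cells per library, too few for the caller to have worked, so the top 6% of its scores were removed as an alternative. Labels do not say that libraries came from separate mice, so p-values measure the spread between libraries. The fits were tested on simulated data. Intervals and floors cover counting error only.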

Additional observations from a re-analysis of the deposited data

Results flagged for a closer look

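The late against early difference of Cxcl5 ran in opposite directions in columnar and CAF-like cells. In columnar cells both late libraries (216 and 273 CPM) lay above both early ones (156 and 70.9), a log2 difference of 1.41 ± 0.54 (SE; edgeR adjusted p = 0.74). In CAF-like cells both late libraries (377 and 1431 CPM) lay below both early ones (3155 and 3227), a difference of -1.71 ± 0.81 (adjusted p = 0.67). Neither was past the threshold, and the difference between the types was not tested. The early CAF-like level rested on 14 and 39 cells, with 115 of 155 and 338 of 767 UMIs in 1 cell each, and 120 of the 176 columnar UMIs of day 1 replicate 1 were in 1 cell. The reference cells stood at 34.7 and 59.6 CPM early and at 283 and 119 late, in the same direction as the columnar cells. Day 3 was at 155 without its richest reference cell, which held 16 of 33 UMIs. The mix of the reference cells differed between libraries, and their part in the columnar values was not tested.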

How the results depend on the processing

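Of the single-gene values under the alternatives, 535 kept direction and call, 31 came past the threshold, 3 dropped under it and 37 took the opposite sign. None of those 37 belonged to a gene called with all cells and libraries, and the cause was not tested. Macrophage-like cells could not be fitted late against early without any of their 3 libraries, nor with library structure as a block. No paired analysis was possible by replicate number because the late libraries share no second number with the early ones. The fits with library structure as a block pair day 1 replicate 1 with day 3 and day 1 replicate 2 with day 6, and called none of the 6 genes in columnar, squamous-like, CAF-like or neutrophil-like cells (adjusted p = 0.09 for Ppbp in columnar and 0.28 for Cxcl3 in CAF-like cells). With 2 libraries against 2, few cells of CAF-like and neutrophil-like type and 1 library of each structure per group, depth and cell number limit every late against early value.

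Genes called late against early in columnar cells (0 in the report) numbered 55 with DESeq2, 260 without the filter on low counts, 17 with library structure as a block, 1 at resolution 0.5, 1 with the top Scrublet scores removed, and 0 (without either day 1 library) to 817 (without day 3) with a library left out, 264 without day 6. In squamous-like cells (0) these were 21 with DESeq2, 97 without the filter, 8 with the block and 10 (without day 1 replicate 2) to 79 (without day 3), 37 without day 1 replicate 1 and 50 without day 6. In CAF-like cells (0) they were 11, 42 without the filter, and 3 (without day 1 replicate 2) to 175 (without day 6), 39 without day 1 replicate 1 and 121 without day 3. In neutrophil-like cells (0) they were 6 with DESeq2, 9 without the filter, 8 with the block, 1 at resolution 2, 1 with the richest cells removed, and 0 (without day 1 replicate 2) to 154 (without day 6), 4 without day 1 replicate 1 and 69 without day 3. In macrophage-like cells (183) they were 17 with DESeq2, 105 with the top Scrublet scores removed and 0 with the richest cells removed. For the interaction (0) they were 29 with DESeq2, 168 without the filter, 5 with the unnamed clusters counted as columnar, and 0 to 293 (without day 3), 11 without day 6.

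Between types, squamous-like against columnar cells (2209) had 3336 without the filter and 1197 (without day 1 replicate 1) to 2116 with a library left out, 1243 without day 6. CAF-like against columnar cells (1459) had 2659 without the filter, 875 at resolution 0.5 and 1023 to 1805 with a library left out. CAF-like against squamous-like cells (871) had 2092 without the filter and 499 (without day 1 replicate 2) to 1124 (without day 3), 533 without day 6. Neutrophil-like against macrophage-like cells (1696) had 797 with DESeq2 and 505 (without day 1 replicate 2) to 1969, 847 without day 1 replicate 1. The late minus early sum of the 5 ligands (272 CPM) ran from -217 without day 6 to 761 without day 3, with -66.7 without day 1 replicate 1 and 611 without day 1 replicate 2.

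Values that took the opposite sign are log2 differences. Late against early in columnar cells, Cxcl1 (0.40) was -0.16 without day 1 replicate 2, -0.10 without day 6, -0.04 at resolution 2, -0.37 at resolution 0.5 and -0.48 with the unnamed clusters, reaching 1.13 without day 1 replicate 1 and 1.56 with the richest cells removed, and with the top Scrublet scores removed Cxcl2 was 0.53 and Cxcl3 0.62. In squamous-like cells Cxcl5 was 0.41 and Ppbp 2.88 without day 1 replicate 2 (-1.62 and -1.56 without replicate 1), and Ppbp was 0.49 with the block. In CAF-like cells Cxcl2 was 0.58 without day 1 replicate 2 and 0.42 without day 3 (-4.10 without day 6). In neutrophil-like cells Cxcl2 was 0.04 with DESeq2 and 0.02 at resolution 2, and without day 3 Cxcl2, Cxcl3 and Cxcl5 were 0.79, 0.45 and -0.07, with -2.14 and -2.63 for the first 2 without day 6. For squamous-like against columnar cells Cxcl2 was -0.09 without day 1 replicate 2, -0.12 without day 3 and -0.01 with the unnamed clusters (0.33 without day 6). For CAF-like against squamous-like cells Cxcl3 and Cxcl5 were -0.48 and -0.10 without day 1 replicate 1 and -0.64 and -0.39 with the richest cells removed, with highs of 1.15 (without day 6) and 0.97 (without day 3). For neutrophil-like against macrophage-like cells Cxcl2 was -0.02 without the filter, -0.41 without day 6 and -0.02 with the richest cells removed, with 0.44 without day 1 replicate 2, and Ppbp was 0.05 without day 1 replicate 1 and -0.30 without day 6. For the interaction, Cxcl2 was 0.05 with DESeq2, 0.87 without day 1 replicate 2, 0.52 without day 6, -0.60 without day 3, 0.46 at resolution 0.5 and 0.03 with the unnamed clusters, Cxcl3 was 1.42 without day 1 replicate 2, -1.89 without replicate 1 and 1.12 at resolution 0.5, Ppbp was 0.19 without day 1 replicate 2 and -3.51 without replicate 1, and Cxcr2 was -0.85 with the top Scrublet scores removed.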
